A study of Mus musculus with 60 samples.

Results

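The 40 genes described here define the B cell or build and serve its antigen receptor. Each was found by matching its symbol to the gene names paired with Ensembl identifiers in the deposited comparison tables, and then by identifier in the raw count tables, which list 49315 genes. All 40 were found, all had reads, and all passed the low count limit of 10 counts in every comparison fitted below. They fall into 8 receptor chains (Cd79a, Cd79b, Ighm, Ighd, Igkc, Iglc1, Iglc2, Iglc3), 14 surface receptors and coreceptors (Ms4a1, Cd22, Cd72, Cr2, Fcer2a, Cd37, Siglecg, Fcrl1, Cd180, Cd40, Tnfrsf13b, Tnfrsf13c, Fcmr, Ly6d), 8 intracellular proteins (Blnk, Blk, Btk, Bank1, Plcg2, Ralgps2, Swap70, Fcrla), 8 transcription regulators (Pax5, Ebf1, Spib, Pou2af1, Pou2f2, Bach2, Mef2c, Bcl11a), and 2 genes of antibody or receptor assembly (Jchain, Vpreb3).

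Whole blood RNA was sequenced from 60 mice in 10 groups of 6. All were male CD2F1 mice of 5 to 6 weeks at purchase, given vehicle or BIO 300 by mouth for 6 days. BIO 300 is an oral powder of synthetic genistein, a soy isoflavone, and its doses of 50, 100 and 200 mg/kg are the Low, Med and High groups of the sample titles. Day 0 blood was drawn 24 h and Day 1 blood 48 h after the last dose. The 8 unirradiated groups were vehicle, 50, 100 and 200 mg/kg on each day. The other 2 groups, vehicle and 200 mg/kg, received 9.2 Gy of total-body irradiation (TBI) on Day 0 and were bled on Day 1, which was 24 h after the exposure. Both irradiated groups therefore carry the same exposure, and no irradiated mouse received 50 or 100 mg/kg. The unirradiated Day 1 vehicle mice served as the control group of the irradiated vehicle, 200, 100 and 50 mg/kg comparisons on that day, so the changes in those comparisons share their control mice.

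A mature B cell carries its antigen receptor as a membrane antibody of the IgM or IgD class (heavy chains Ighm and Ighd) with a kappa (Igkc) or lambda (Iglc1 to Iglc3) light chain. The Cd79a and Cd79b pair carries the signal inward to kinases such as Blk and Btk, the adaptor Blnk and the phospholipase Plcg2, while Cd22, Cd72 and Siglecg restrain it. Pax5 and Ebf1 establish and hold B cell identity, and blood B cells are among the most radiosensitive of circulating cells. In whole blood RNA, fewer B cells and less of a transcript per B cell cannot be told apart. Some of the 40 genes are also used outside B cells: Btk and Plcg2 serve platelets and myeloid cells, Mef2c serves the megakaryocyte and monocyte lineages, Cd37 is made by most leukocytes, and Jchain is made chiefly by plasma cells.

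Promoter sequence was taken from RefSeq (mouse build GRCm38.p6), in windows of 250 bases before to 50 after each annotated start, and windows were found for 29 of the 40 genes. 3 motifs were searched on both strands, and they are shown because factors among the 40 genes bind them: the octamer ATGCAAAT (bound by Pou2f2 with Pou2af1), the palindrome TCCCNNGGGA (Ebf1), and GAGGAAGT (the ETS site type of Spib). The octamer was in 1.74% of all 32851 windows and in those of Vpreb3 and Blnk, the palindrome was in 0.904% of windows and in that of Cd22, and GAGGAAGT was in 3.2% of windows and in those of Cd37, Cd72 and Fcrl1. The windows of Vpreb3, a gene that was nearly lost after irradiation, of Blnk and Cd22, and of Btk, which was not called lower after irradiation, are printed below as the 150 bases before the start, with the motif in capitals on whichever strand it lies. The window of Btk held none of the 3 motifs. A match is a description of the letters, and no factor binding was measured in these mice.
Vpreb3 (chr10:75948150-75948299, plus strand, octamer at -45 to -38): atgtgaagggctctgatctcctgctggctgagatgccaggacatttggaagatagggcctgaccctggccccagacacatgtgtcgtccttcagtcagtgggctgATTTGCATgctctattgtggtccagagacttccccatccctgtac
Blnk (chr19:40994222-40994371, minus strand, octamer at -130 to -123): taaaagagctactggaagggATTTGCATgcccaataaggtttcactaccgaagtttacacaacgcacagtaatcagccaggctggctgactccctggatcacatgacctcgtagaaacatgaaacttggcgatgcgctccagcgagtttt
Cd22 (chr7:30879029-30879178, minus strand, palindrome at -49 to -40): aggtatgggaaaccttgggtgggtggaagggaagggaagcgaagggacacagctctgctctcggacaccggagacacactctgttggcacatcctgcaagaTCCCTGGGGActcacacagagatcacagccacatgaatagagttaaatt
Btk (chrX:134583141-134583290, minus strand, no motif): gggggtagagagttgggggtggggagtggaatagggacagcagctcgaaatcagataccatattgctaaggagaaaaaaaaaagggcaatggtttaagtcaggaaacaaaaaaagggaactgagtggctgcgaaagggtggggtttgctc

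Counts per mouse summed to 15099415 to 45589415. Levels are given in CPM, the read count of a gene scaled to a common library size, after TMM scaling of all 60 libraries, a scaling that balances the libraries on the bulk of their genes. Genes were tested with the edgeR quasi-likelihood test over all genes, and a gene was called when its Benjamini-Hochberg adjusted p was under 0.05 and its log2 fold change exceeded 1 in size. This scaling matters most for Day 1 mice given either of the higher doses. At 100 and 200 mg/kg the 4 red cell (globin) genes summed to 219201 to 464276 CPM and 167819 to 429413 CPM, against 58273 to 82936 CPM in Day 1 vehicle mice, and the 7 platelet genes summed to 13791 to 29917 CPM and 13194 to 23023 CPM against 1829 to 3662 CPM. The noncoding gene Gm26917 took 0.134 to 0.454% and 0.0562 to 1.46% of the counts in the same 2 dosed groups, against 5.32 to 8.77% in the vehicle mice. Scaling by total counts instead moved the median log2 fold change of all genes from -0.48 to -1.96 for the 200 mg/kg dose and from -0.38 to -1.76 for 100 mg/kg, so results that turn on this choice are given both ways. Alb, a liver gene, exceeded 100 CPM in 10 of the 60 mice, and without those mice 33 members were called lower after irradiation, 29 with 200 mg/kg and 26 with 100 mg/kg, in place of the 35, 27 and 26 given below. Of all genes, 5476 of 23274, 7540 of 22601 and 6849 of 22691 were then called lower. With all mice these were 4122 of 25146, 7168 of 23513 and 7249 of 23699.

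The 40 genes together took 0.504 to 0.893% (median 0.54%) of the counts of the Day 1 vehicle mice, the share being counts on the 40 genes over all counts of a mouse. Day 0 vehicle mice lay at 0.314 to 0.6251% (median 0.521%). Day 1 mice given 100 mg/kg lay at 0.0723 to 0.168% (median 0.0858%) and those given 200 mg/kg at 0.0432 to 0.129% (median 0.0954%). Irradiated vehicle mice lay at 0.0564 to 0.111% (median 0.0991%) and irradiated mice given 200 mg/kg at 0.0576 to 0.0971% (median 0.0725%). These 4 groups did not overlap with any other group, since the lowest mouse elsewhere, a Day 0 mouse given 200 mg/kg, was at 0.185%. The highest shares, 0.834 to 1.05% (median 0.941%), belonged to Day 0 mice given 50 mg/kg, whereas Day 1 mice at that dose lay at 0.263 to 0.55% (median 0.404%). Day 0 mice given 100 mg/kg lay at 0.308 to 0.703% (median 0.506%) and those given 200 mg/kg at 0.185 to 0.47% (median 0.389%).

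**Figure D1:**
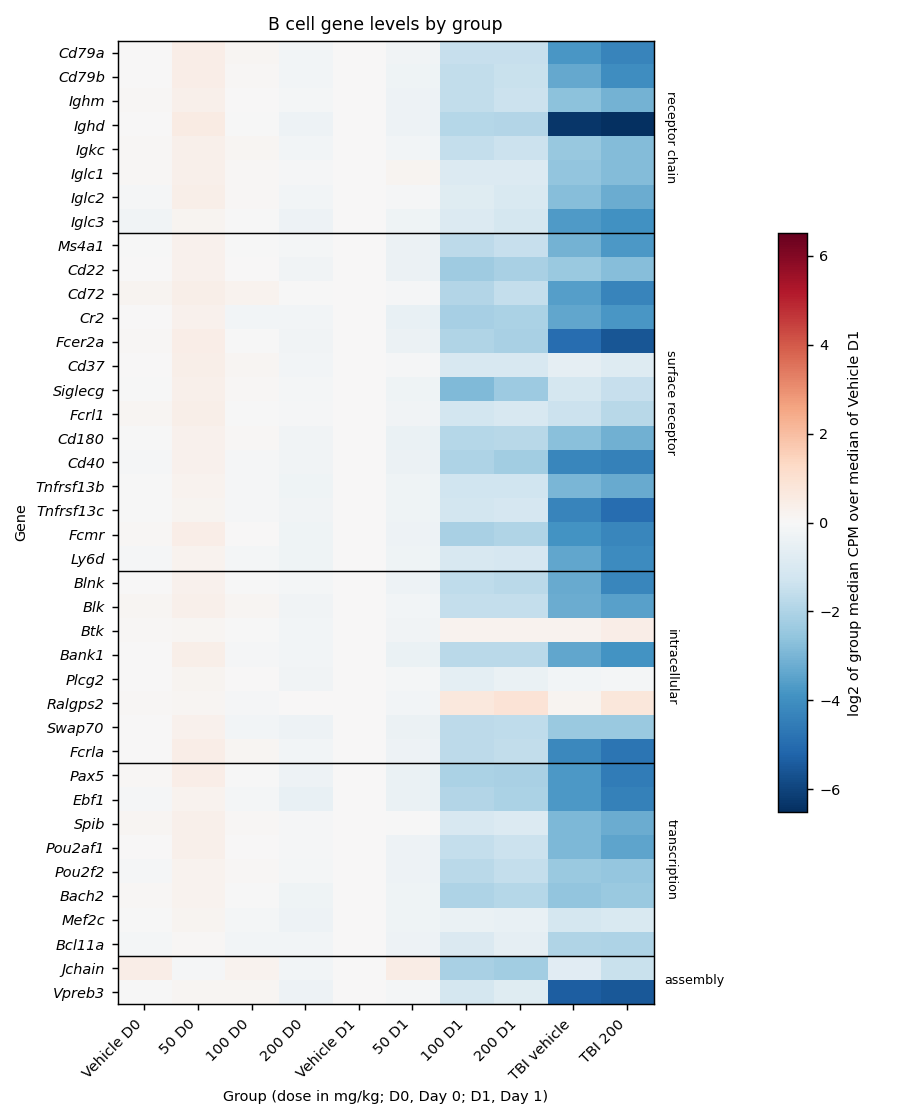
Level of each of the 40 genes (rows, in blocks by role) in the 10 groups (columns), as the log2 ratio of the group median CPM to the median of the Day 1 vehicle mice (color bar). The Day 0 columns and the 50 mg/kg Day 1 column stay pale, the 100 and 200 mg/kg Day 1 columns turn blue except at a few genes, and the irradiated columns are darkest at Ighd, Vpreb3 and Fcer2a, with Btk and Ralgps2 slightly red on this TMM scale, a direction that turns with total counts.

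Per kilobase of exonic length, the light chain Igkc stood highest in Day 1 vehicle mice with a median of 897 CPM per kb. The heavy chains Ighm and Ighd followed with 287 and 181 CPM per kb, and then Iglc2 with 112 and Cd79a with 111. The lowest of the 40 was Cd72, the inhibitory coreceptor, with 4.69 CPM per kb. Ighm lies at chr12:113418558-113422730 and Ighd beside it at chr12:113406604-113416324 (GENCODE M21 annotation of GRCm38), and both are constant region genes read from the minus strand. Iglc1, Iglc2 and Iglc3 are lambda constant regions on chromosome 16, of which Iglc2 and Iglc3 are near-identical, and since only reads with a single mapping place were counted, the values of these paralogs are uncertain.

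Vehicle mice of the 2 days showed no detected difference at these genes. Day 1 against Day 0 vehicle mice gave 0 members called with the edgeR test and 0 with DESeq2, where edgeR called 0% of all genes and DESeq2 called 1 higher and 36 lower, and no member had an unadjusted p under 0.05 in either test. The median log2 fold change of the members was 0.05. Cd79a, the signal chain of the receptor, measured 130.1 to 196 CPM (median 167) on Day 0 and 148 to 230.4 CPM (median 162) on Day 1. Within a group the mice differed from each other by a coefficient of variation that was typically 11.1% for Btk and 18.7% for Cd79a, and Jchain varied most, at 44.7% (each the median over the 10 groups).

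Irradiation lowered most of the B cell genes. In irradiated vehicle mice against Day 1 vehicle mice, 35 of the 40 were called lower and none higher. Of all 25146 genes tested 16.4% were called lower and 19.6% higher. The median log2 fold change of the 40 was -3.09, beside 0.09 for all genes. All 8 receptor chains, 13 of 14 surface receptors, 5 of 8 intracellular proteins, 8 of 8 transcription regulators and 1 of 2 assembly genes were called. Against Day 0 vehicle mice, a control group with other mice, 33 of the 40 were called lower (11.8% of all genes), with a median of -2.94. There Cd79a changed by -3.67 ± 0.24, Cd79b by -3.32 ± 0.29, Ms4a1 by -2.98 ± 0.28, Ighm by -2.58 ± 0.27, Ighd by -5.87 ± 0.38 and Igkc by -2.49 ± 0.33, while Jchain at -1.12 ± 0.54, Plcg2 at -0.04 ± 0.20, Btk at 0.26 ± 0.19 and Ralgps2 at 0.44 ± 0.30 were not called.

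The receptor chains fell by unequal amounts. Cd79a measured 148 to 230.4 CPM (median 162) in Day 1 vehicle mice and 6.88 to 18.0 CPM (median 11.9) in irradiated vehicle mice. Its partner Cd79b measured 119 to 190.1 CPM (median 140.4) and 5.74 to 20.9 CPM (median 13.8) in the same groups. The groups were far apart at both genes, with log2 fold changes of -3.88 ± 0.26 (SE) and -3.48 ± 0.31 (edgeR adjusted p = 1.62e-06 and 6.57e-06). Ighd, the IgD heavy chain of mature naive B cells, fell most of all 40 genes, with 305 to 476 CPM (median 344) in the controls and 2.68 to 9.35 CPM (median 4.24) in the irradiated mice. That was a 73.3-fold fall, or -6.20 ± 0.35 on the log2 scale (edgeR adjusted p = 7.29e-07). Ighm, the IgM heavy chain beside it, measured 429 to 756 CPM (median 541) and 43.3 to 151 CPM (median 86.6), a log2 fold change of -2.65 ± 0.30 (edgeR adjusted p = 2.74e-05). The kappa chain Igkc measured 441 to 698 CPM (median 477) and 25.2 to 113 CPM (median 85.7), a log2 fold change of -2.67 ± 0.32 (edgeR adjusted p = 4.33e-05). Among the lambda chains the log2 fold changes were -2.63 for Iglc1, -2.79 for Iglc2 and -3.68 for Iglc3, all called.

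The relation of Ighd to Ighm could be read without any scaling, as counts of one per 100 counts of the other in the same mouse, a ratio chosen after these changes were seen. It was 58.4 to 78.8 (median 67.0) in Day 1 vehicle mice and 42.8 to 68.0 (median 59.9) in Day 0 vehicle mice. It was 1.77 to 9.24 (median 7.44) in irradiated vehicle mice and 1.73 to 9.44 (median 4.75) in irradiated mice given 200 mg/kg. No irradiated mouse reached 10 Ighd counts per 100 Ighm counts, and no unirradiated mouse of any group went below 39.3. The unirradiated 200 mg/kg Day 1 mice, whose B cell counts were also low, held 39.3 to 50.6 (median 47.9), and those given 100 mg/kg held 50.3 to 61.5 (median 54.7).

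Fcer2a, the low affinity IgE receptor CD23 of follicular B cells, measured 89.5 to 140.2 CPM (median 101) in controls and 1.15 to 5.12 CPM (median 3.26) in irradiated mice, a log2 fold change of -5.12 ± 0.39 (edgeR adjusted p = 3.19e-06). Vpreb3, which helps receptor chains assemble in the endoplasmic reticulum, measured 6.52 to 10.3 CPM (median 7.66) and 0.0742 to 0.334 CPM (median 0.184), a change of -5.43 ± 0.41 (edgeR adjusted p = 2.75e-06). It was left with 2 to 8 reads per irradiated vehicle mouse, against 208 to 421 in the controls, so its remaining level is poorly resolved. Fcrla, an Fc receptor relative kept inside B cells, changed by -4.39, and Tnfrsf13c, the receptor for the survival factor BAFF, by -4.10. Ms4a1, which encodes CD20, measured 161 to 273 CPM (median 184) and 10.2 to 39.4 CPM (median 22.1), a log2 fold change of -3.13 ± 0.32 (edgeR adjusted p = 1.34e-05). The identity factors Pax5 and Ebf1 changed by -3.59 ± 0.31 and -3.75 ± 0.28, and none of their irradiated mice overlapped with the controls.

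Of the 14 surface receptors, Cd37 was the one not called lower after irradiation. Cd22, a sialic acid binding inhibitor of receptor signals, measured 97.2 to 139 CPM (median 123) in Day 1 vehicle mice and 12.6 to 29.3 CPM (median 23.0) after irradiation. Cd72, another inhibitory coreceptor, measured 15.7 to 24.3 CPM (median 16.0) and 0.62 to 2.76 CPM (median 1.32). At both genes every irradiated mouse lay under the lowest control, and the log2 fold changes were -2.46 ± 0.22 and -3.62 ± 0.34. Cr2, the complement receptor CD21, measured 44.0 to 74.0 CPM (median 59.6) and 3.47 to 7.66 CPM (median 5.79), and Cd40, which receives T cell help, 17.5 to 23.6 CPM (median 19.1) and 0.735 to 3.55 CPM (median 1.01). Their changes were -3.41 ± 0.24 and -3.73 ± 0.39. The BAFF family receptors Tnfrsf13c and Tnfrsf13b changed by -4.10 ± 0.31 and -3.10 ± 0.23, the IgM Fc receptor Fcmr by -3.76 ± 0.31, the toll-like receptor relative Cd180 by -2.42 ± 0.35, Ly6d by -3.37 ± 0.31 and Fcrl1 by -1.56 ± 0.30. Tnfrsf13c fell from a control median of 32.5 CPM to 1.66 CPM in irradiated vehicle mice, but stood at 15.2 CPM in unirradiated 200 mg/kg mice and 14.4 CPM in 100 mg/kg mice.

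Of the 8 intracellular proteins, 5 were called lower after irradiation. Blnk, the adaptor that gathers the signal, measured 34.3 to 51.7 CPM (median 39.7) in Day 1 vehicle mice and 1.4 to 6.79 CPM (median 4.1) after irradiation, and Blk, a Src family kinase of the receptor pathway, 37.8 to 60.7 CPM (median 43.4) and 2.6 to 7.58 CPM (median 4.66). Their log2 fold changes were -3.43 ± 0.33 and -3.20 ± 0.26. Bank1, a scaffold of the same pathway, changed by -3.15 ± 0.38, Fcrla by -4.39 ± 0.29 and Swap70 by -2.38 ± 0.20. The 3 genes of this role that were not called are Btk, Plcg2 and Ralgps2.

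All 8 transcription regulators were called lower after irradiation, over a wide range. Ebf1 measured 43.4 to 78.8 CPM (median 66.6) in Day 1 vehicle mice and 2.34 to 8.03 CPM (median 5.07) after irradiation, and Pax5 86.6 to 195 CPM (median 164) and 6.57 to 21.1 CPM (median 12.2). Spib, an ETS factor of B cells and some dendritic cells, changed by -2.95 ± 0.23, and the octamer coactivator Pou2af1 and its partner Pou2f2 by -3.08 ± 0.25 and -2.51 ± 0.18. Bach2, which holds back plasma cell fate, changed by -2.51 ± 0.21, Bcl11a by -1.69 ± 0.36 and Mef2c by -1.04 ± 0.26. At 200 mg/kg on Day 1 Bach2 changed by -1.77 ± 0.22, Ebf1 by -1.93 ± 0.24, Pax5 by -1.88 ± 0.26, Pou2af1 by -1.36 ± 0.20 and Pou2f2 by -1.50 ± 0.25, and these 5 were the regulators called at that dose.

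5 genes escaped the call of loss, and their levels overlapped between the irradiated and control mice. Ralgps2, which encodes an exchange factor for Ral GTPases (chr1:156804166-156939626), measured 98.3 to 126 CPM (median 115) in controls and 61.3 to 269 CPM (median 131) after irradiation, a log2 fold change of 0.33 ± 0.27 (edgeR adjusted p = 0.323). Btk, the tyrosine kinase needed for B cell maturation (chrX:134542336-134583570), measured 30.7 to 41.0 CPM (median 34.6) and 25.9 to 48.5 CPM (median 40.7), a log2 fold change of 0.11 ± 0.16 (edgeR adjusted p = 0.602). Plcg2, its phospholipase substrate, measured 58.4 to 99.7 CPM (median 81.8) and 53.1 to 97.1 CPM (median 73.5), a log2 fold change of -0.15 ± 0.19 (edgeR adjusted p = 0.528). Scaled by total counts, Ralgps2 and Btk turned to log2 fold changes of -0.20 and -0.35, so neither gene's direction is settled. Plcg2 turned to 0.08 without the mice over 100 CPM of Alb.

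Cd37, a tetraspanin of leukocytes, measured 104 to 136 CPM (median 116) and 57.8 to 112 CPM (median 77.9). Its log2 fold change of -0.50 ± 0.18 had an edgeR adjusted p of 0.0332 but did not reach the fold limit. Jchain, which joins antibodies into multimers, measured 13.6 to 37.6 CPM (median 22.5) and 1.47 to 19.1 CPM (median 13.7) and varied widely between mice, a log2 fold change of -1.05 ± 0.48 (edgeR adjusted p = 0.0884). With total counts its change of -1.44 passed the test. The weakest calls were Mef2c, a transcription factor, at 113 to 161 CPM (median 143) against 31.9 to 124 CPM (median 65.7), a log2 fold change of -1.04 ± 0.26 (edgeR adjusted p = 0.00576), and Siglecg (-1.11 ± 0.24, adjusted p = 0.0022, edgeR). Leaving out 1 mouse at a time, Mef2c stayed called in 7 of 12 fits and Siglecg in 11 of 12. Against the Day 0 vehicle mice neither passed the fold limit, at -0.83 and -0.94.

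Genes of other blood cells moved in the same irradiated mice, where 19.6% of all genes were called higher and 16.4% lower. All 7 platelet genes were called higher, with a median log2 fold change of 2.54, and their summed level was 3466 to 24947 CPM against 1829 to 3662 CPM in the Day 1 vehicle mice. Of 8 neutrophil genes 7 were called higher and 1 lower, and their sum was 1071 to 6306 CPM against 406 to 674 CPM. All 8 T cell genes were called lower, with a median of -2.29. The 6 monocyte genes summed to 476 to 1506 CPM (median 968) against 356 to 596 CPM (median 449). Btk, Plcg2, Mef2c and Cd37 are expressed in some of these cells, and the part that the other cells had in the levels of the escaping genes was not tested.

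**Figure D2:**
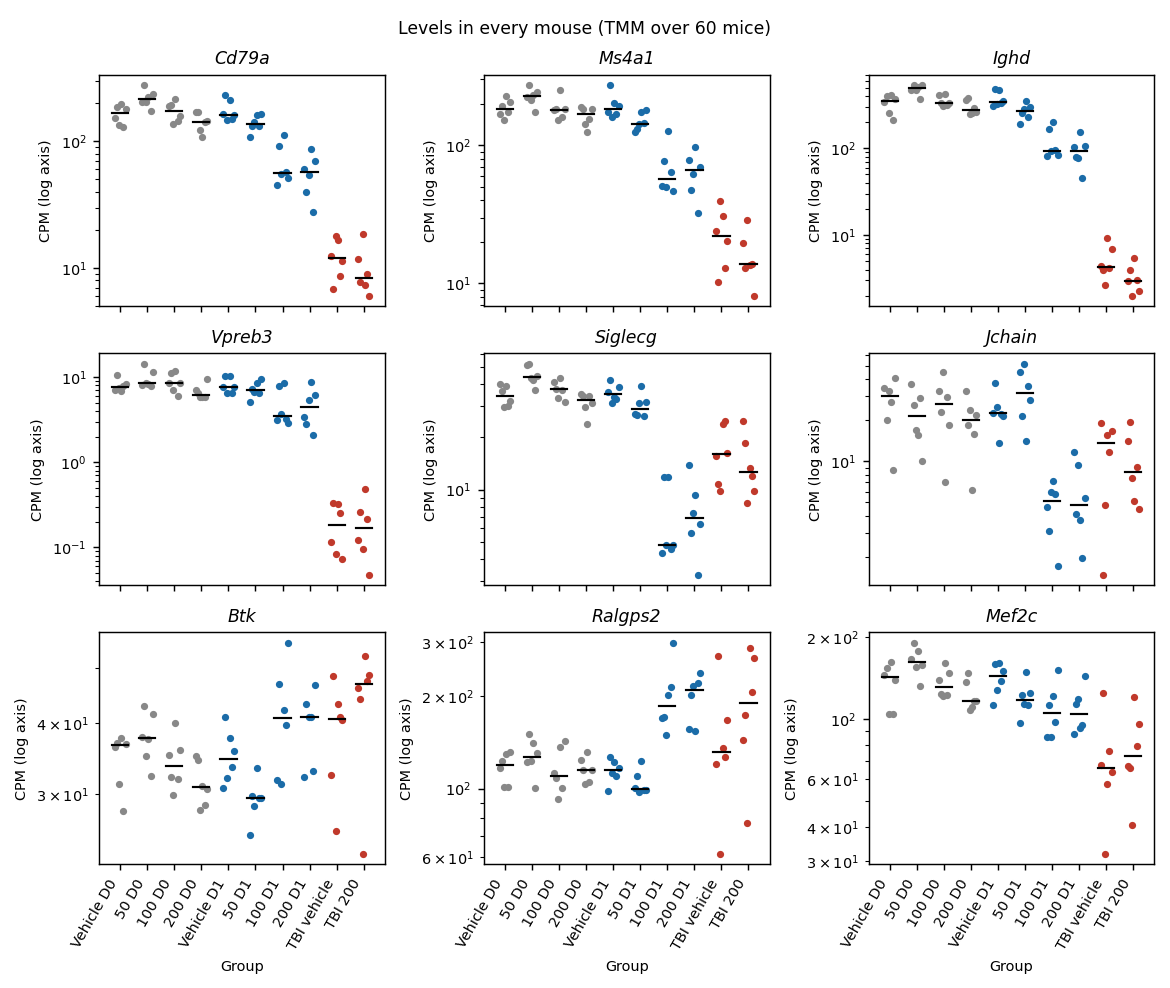
CPM (log axis, TMM over 60 mice) of 9 of the genes in each mouse of the 10 groups; points are mice, bars are group medians, gray is Day 0, blue is unirradiated Day 1 and red is irradiated. Cd79a, Ms4a1, Ighd and Vpreb3 are lowest in the irradiated groups, and Siglecg is lowest at 100 and 200 mg/kg on Day 1. The irradiated vehicle medians of Btk and Ralgps2 lie above those of the Day 1 vehicle mice on this TMM scale, a direction that turns with total counts. At both genes some irradiated mice lie below the Day 1 vehicle range.

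At the higher doses of BIO 300, most of these genes were also lower on Day 1 in mice that saw no radiation. At 200 mg/kg, 27 of the 40 genes were called lower and none higher, where 30.5% of all 23513 genes were called lower and 17.3% higher. The median of the members was -1.50 and that of all genes -0.48. At 100 mg/kg, 26 were called lower and none higher (30.6% and 18.2% of all 23699 genes), with medians of -1.30 and -0.38. By total counts, 39 of 40 were called lower at each dose, where 65.5% of all genes were called lower at 200 mg/kg and 62.2% at 100 mg/kg, with member medians of -2.98 and -2.68. With TMM, 5 of 8 receptor chains, 5 of 8 intracellular proteins and 5 of 8 transcription regulators were called at each dose, as were 11 of 14 surface receptors at 200 mg/kg and 10 of 14 at 100 mg/kg.

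Cd79a lay at 27.4 to 87.7 CPM (median 57.5) after 200 mg/kg and 45.2 to 112 CPM (median 56.5) after 100 mg/kg, below every Day 1 vehicle mouse in both groups. Its log2 fold changes were -1.57 ± 0.24 and -1.29 ± 0.23 (edgeR adjusted p = 5.17e-05 and 0.000251). Cd79b changed by -1.48 ± 0.23 and -1.22 ± 0.23, and Ms4a1 by -1.53 ± 0.23 and -1.43 ± 0.25, at 200 and 100 mg/kg. The heavy chains changed by -1.38 ± 0.24 and -1.31 ± 0.24 for Ighm and by -1.92 ± 0.24 and -1.58 ± 0.25 for Ighd. Igkc changed by -1.49 ± 0.24 and -1.28 ± 0.23. All of these were called at both doses. The lambda chains were not called at either dose, with values of -0.98 to -0.97 for 200 mg/kg and -0.88 to -0.60 for 100 mg/kg.

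Siglecg, an inhibitory receptor prominent on B-1 cells (chr7:43408204-43418358), fell most at both doses. It measured 31.1 to 42.4 CPM (median 35.1) in Day 1 vehicle mice, 3.25 to 13.8 CPM (median 6.85) after 200 mg/kg and 4.34 to 11.8 CPM (median 4.8) after 100 mg/kg. The dosed and vehicle mice did not overlap, and the changes were -2.15 ± 0.25 and -2.28 ± 0.29 (edgeR adjusted p = 4.07e-06 and 9.47e-06). At 200 mg/kg the next largest falls were those of Fcer2a (-2.03) and the T cell help receptor Cd40 (-2.01). At 100 mg/kg they were those of Jchain (-2.27) and the complement receptor Cr2 (-1.89). Jchain at 200 mg/kg changed by -1.89 ± 0.35, and it was called at both doses, with 1.72 to 7.2 CPM (median 5.16) at 100 mg/kg.

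The genes that escaped were again led by Ralgps2 and Btk. Ralgps2 measured 154 to 238 CPM (median 209) after 200 mg/kg and 149 to 298 CPM (median 186) after 100 mg/kg, above every Day 1 vehicle mouse. Its changes of 0.86 ± 0.13 and 0.87 ± 0.15 had edgeR adjusted p of 3.71e-05 and 0.000155 but lay under the fold limit. By total counts they turned to -0.69 and -0.54, and Ralgps2 was then the one member not called lower at either dose. Btk changed by 0.24 ± 0.12 and 0.29 ± 0.14 with TMM and by -1.29 and -1.11 with total counts. Plcg2 changed by -0.36 ± 0.16 and -0.40 ± 0.21 and Mef2c by -0.31 ± 0.14 and -0.31 ± 0.15, none of them called with TMM. By total counts Plcg2 was called at -1.87 and -1.77, Mef2c at -1.84 and -1.71 and Btk as given. The remaining genes that missed the call at 200 mg/kg were Bcl11a (-0.47), Vpreb3 (-0.71), Spib (-0.88), Ly6d (-0.94), Cd37 (-0.97) and Tnfrsf13c (-0.998), beside the 3 lambda chains. The same genes missed it at 100 mg/kg, together with Fcrl1 (-0.89). All 7 platelet genes were called higher at both doses (medians 3.23 and 3.13), where 17.3% and 18.2% of all genes were. All 8 T cell genes were called lower, where 30.5% and 30.6% of all genes were. The part of the platelet and T cell genes in these results was not tested.

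**Figure D3:**
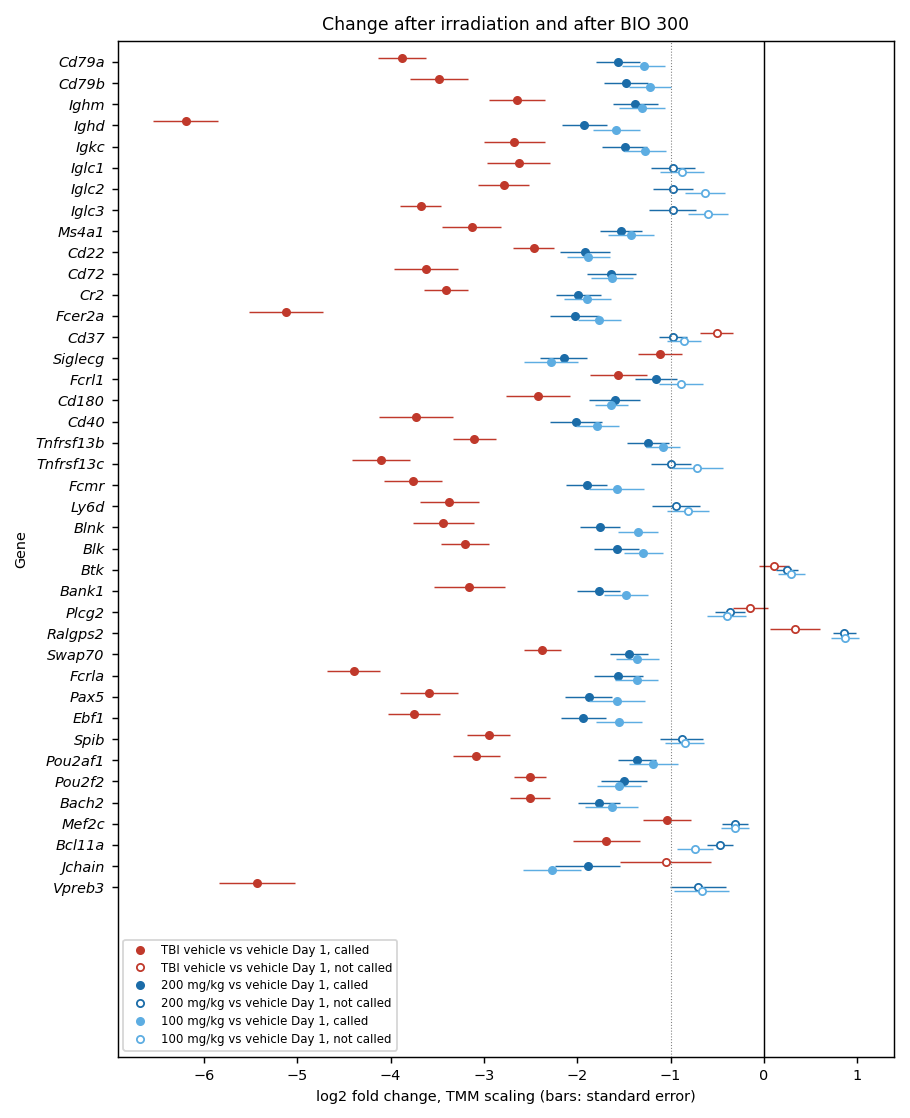
Log2 fold change (x axis, TMM scaling, bars 1 standard error) of each of the 40 genes (y axis) in irradiated vehicle, 200 mg/kg and 100 mg/kg mice against the same 6 Day 1 vehicle mice; filled points were called, open points were not, and the dotted line marks the fold limit at -1. Red points lie left of the blue ones at most genes, but right of the 200 mg/kg points at Siglecg, Cd37, Jchain and Plcg2, and Btk and Ralgps2 lie above 0 in all 3 comparisons with TMM and below 0 with total counts.

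Between the 2 doses no difference was detected. 200 against 100 mg/kg on Day 1 gave 0 members called with edgeR and 0 with DESeq2 (0% of all genes called), and none had an unadjusted p under 0.05 in either. Cd79a differed by -0.26 ± 0.28 and Siglecg by 0.16 ± 0.36 on the log2 scale (± SE). Over the 40 genes the difference ran from -0.39 at Blnk to 0.38 at Jchain. The 50 mg/kg dose gave 0 members called on Day 1 with edgeR (0% of all genes) and with DESeq2 (27 of all genes higher and 12 lower). Still, 39 of 40 log2 fold changes were negative, with a median of -0.27, though values from the same mice are not independent. An unadjusted p under 0.05 was seen at 20 members in edgeR and 17 in DESeq2, and at 4458 and 4009 of all 24118 genes. The lowest was Ighd at -0.48 ± 0.16 (edgeR adjusted p = 0.151) and the single positive value was that of Jchain, 0.47 ± 0.28.

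On Day 0, at 24 h after the last dose, no lowering at the higher doses was detected. At 200 mg/kg 0 members were called with edgeR (0% of all genes) and 0 with DESeq2 (2 of all genes higher), and 39 of 40 values were negative with a median of -0.19. An unadjusted p under 0.05 was seen at 1 member in edgeR and 2 in DESeq2, and at 2145 and 2179 of all 23795 genes. At 100 mg/kg 0 were called with edgeR (0% of all genes) and 0 with DESeq2 (2 of all genes lower), 32 of 40 values were positive with a median of 0.07, and none had an unadjusted p under 0.05 in edgeR or DESeq2.

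In the 50 mg/kg Day 0 mice the values were mostly positive. With TMM, 0 members were called higher and 0 lower by edgeR and 0 by DESeq2, where 0.127% of all genes were called higher and 4.38% lower. Even so 39 of 40 log2 fold changes were positive, with a median of 0.31 beside 0.03 for all genes. The 40 values come from the same mice and are not independent. An unadjusted p under 0.05 was seen at 26 of them in edgeR and 23 in DESeq2, and at 7588 and 6652 of all 24485 genes. Ighd measured 371 to 535 CPM (median 492) against 211 to 413 CPM (median 354) in Day 0 vehicle mice, and the groups overlapped, a log2 fold change of 0.55 ± 0.16 (edgeR adjusted p = 0.0409). By total counts 13 of the 40 were called higher, where 10.5% of all genes were, with Ighd at 1.18, and Jchain was the smallest at 0.39. In the same mice 5 of 7 platelet genes were called lower with TMM, with a median of -1.02, and 0 with total counts, with a median of -0.37. Of 8 T cell genes 0 were called with TMM and 6 were called higher with total counts, with medians of 0.42 and 1.08. The part of the platelet and T cell genes in the B cell values was not tested.

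The dose effects on the 2 days were compared within 1 model per dose, as the change on Day 1 less the change on Day 0. 27 members were called lower on Day 1 than on Day 0 at 200 mg/kg (23.6% of all genes), led by Siglecg (-2.02 ± 0.28, adjusted p = 3.88e-06, edgeR), Cd40 (-1.92) and Cr2 (-1.84). 26 members were called lower at 100 mg/kg (26.3% of all genes), led by Siglecg (-2.42 ± 0.30, adjusted p = 1.05e-06, edgeR), Jchain (-2.22) and Cd22 (-2.005). At 50 mg/kg 1 member was called lower (0.961% of all genes), Ighd (-1.04 ± 0.24, adjusted p = 0.00313, edgeR). That call sat at the fold limit, since Ighd was at -0.96 with DESeq2 size factors and -0.99 with filterByExpr. By total counts 38 members were called lower at 200 mg/kg (52.5% of all genes), 39 at 100 mg/kg (56.4%) and 39 at 50 mg/kg (38.7%), with all-gene medians of -1.58, -1.83 and -1.05. Cd79a gave -1.38 and -1.39 at 200 and 100 mg/kg, Cd79b -1.28 and -1.34, Ms4a1 -1.34 and -1.44, Ighm -1.17 and -1.36, Ighd -1.79 and -1.70, Igkc -1.26 and -1.38, and Jchain at 200 mg/kg -1.42. The highest values belonged to Ralgps2 (0.88 and 0.89), Btk (0.38 and 0.30) and Mef2c (-0.17 and -0.33), none called. By total counts Ralgps2 turned to -0.43 and -0.57 and Btk to -0.92 and -1.17.

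The losses were then read relative to other B cell genes, so that a loss common to all of them drops out. Libraries were rescaled by the median count ratio of 7 reference genes (Cd79a, Cd79b, Ms4a1, Cd22, Cd72, Blk and Pax5), and the other 33 members were tested on that scale. A gene that follows the common loss lies near 0, and a gene that escapes it is high. Since the reference genes had fallen while the typical gene had not, nearly every gene of the blood is high on this scale: in irradiated against Day 1 vehicle mice 91.8% of all genes were called higher and 0.231% lower, with a median of 3.54. Of the 33 members 11 were called higher and 4 lower, with a median of 0.62.

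The 11 that lagged behind the common loss after irradiation were, in falling order, Ralgps2 (4.03 ± 0.50), Btk (3.72 ± 0.37), Plcg2 (3.40 ± 0.33), Cd37 (3.02 ± 0.31), Mef2c (2.68 ± 0.46), Siglecg (2.42 ± 0.34), Jchain (2.34 ± 0.46), Bcl11a (2.05 ± 0.51), Fcrl1 (1.94 ± 0.35), Swap70 (1.11 ± 0.25) and Bach2 (1.06 ± 0.31). Ralgps2, Btk and Plcg2 stood near the median of all genes. Bcl11a and Bach2 are transcription repressors, Fcrl1 is a coreceptor of B cells, and Swap70 is an exchange factor involved in B cell movement. The 4 that fell beyond the common loss were Ighd (-2.74 ± 0.31, adjusted p = 8.91e-07, edgeR), Vpreb3 (-1.95 ± 0.48), Fcer2a (-1.60 ± 0.38) and Fcrla (-1.001 ± 0.22). Fcrla sat at the fold limit. The remaining 18 members lay between -0.70 (Tnfrsf13c) and 0.98 (Pou2f2). Ighm and Igkc, at 0.74 and 0.74, were among them.

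After BIO 300 the spread around the common loss was narrower. At 200 mg/kg 5 of the 33 were called higher and none lower, where 45.9% of all genes were called higher and 1686 of all 23513 lower. The 5 were Ralgps2 (2.70 ± 0.36), Btk (1.98 ± 0.26), Mef2c (1.46 ± 0.29), Plcg2 (1.34 ± 0.25) and Bcl11a (1.33 ± 0.30). At 100 mg/kg 4 were called higher and none lower, where 46.5% of all genes were called higher and 2232 of all 23699 lower. The 4 were Ralgps2 (2.42 ± 0.27), Btk (1.81 ± 0.21), Mef2c (1.205 ± 0.22) and Plcg2 (1.07 ± 0.22). Siglecg lay at -0.58 ± 0.22 and -0.95 ± 0.16 on this scale, Ighd at -0.34 ± 0.21 and -0.20 ± 0.15, and Vpreb3 at 0.84 ± 0.23 and 0.68 ± 0.19. The next lowest were Cd40 (-0.49) and Fcer2a (-0.47) at 200 mg/kg and Jchain (-0.76) and Cr2 (-0.50) at 100 mg/kg. The irradiation and dose comparisons share their control mice, so the values are given side by side only.

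**Figure D4:**
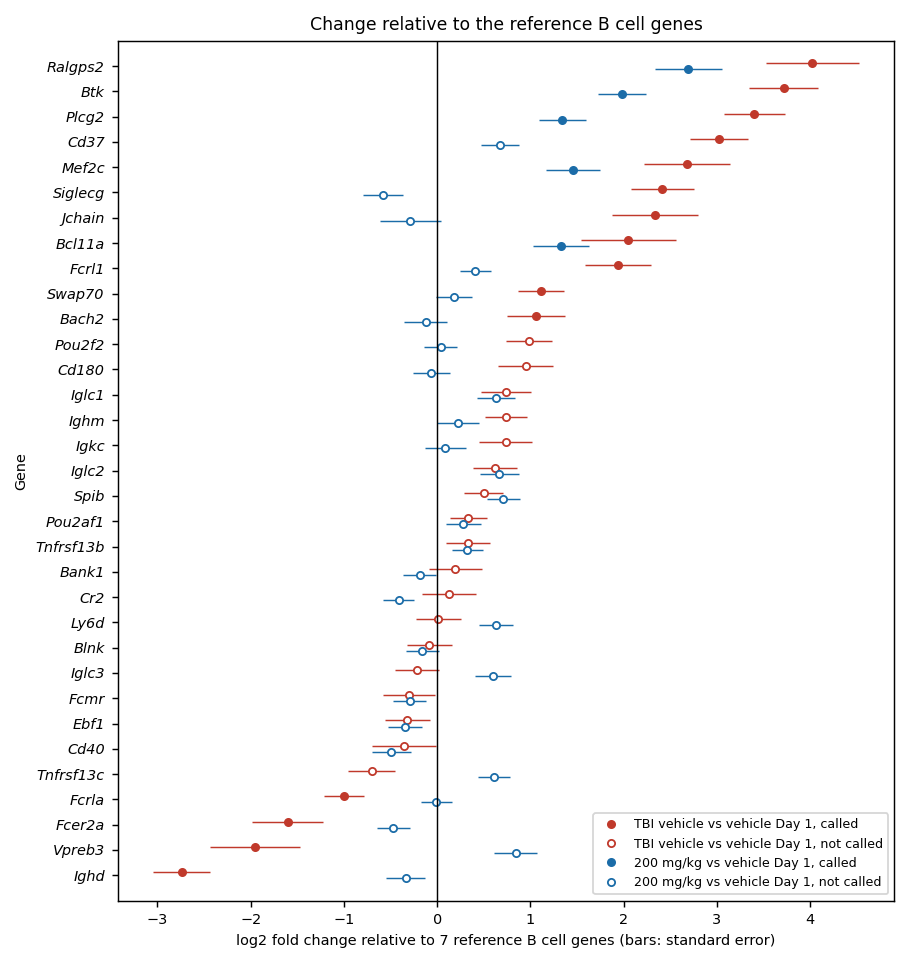
Log2 fold change (x axis, bars 1 standard error) of the 33 members outside the reference set, relative to the 7 reference B cell genes, in irradiated vehicle mice (red) and 200 mg/kg mice (blue) against the same Day 1 vehicle mice; filled points were called. Genes are ordered by the irradiated value, from Ralgps2 at 4.03 to Ighd at -2.74, and the blue points stay closer to 0, with Siglecg and Jchain below it. The median of all genes was 3.54 in the irradiated and 1.13 in the 200 mg/kg comparison.

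To set the 2 losses against each other without shared mice, irradiated vehicle mice were compared directly with the unirradiated 200 mg/kg Day 1 mice, a comparison added after the values above were seen. 25 members were called lower in the irradiated mice and 1 higher, where 4.59% of all genes were called lower and 19.6% higher, and the members' median was -1.42 beside 0.56 for all genes. By total counts 8 were called lower and 4 higher, where 0.993% of all genes were lower and 48.8% higher, with medians of -0.47 and 1.49. The lowest were Vpreb3 (-4.50 ± 0.52, adjusted p = 6.71e-05, edgeR), Ighd (-4.07 ± 0.36) and Tnfrsf13c (-2.90 ± 0.35). Cd79a was at -2.10 ± 0.31, Cd79b at -1.78 ± 0.35, Ms4a1 at -1.39 ± 0.34 and Ighm at -1.05 ± 0.32, all called with TMM, whereas Igkc at -0.97 ± 0.35 was not. By total counts Cd79b, Ms4a1 and Ighm lost the call, at -0.83, -0.42 and -0.091.

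Siglecg was the one member called higher in the irradiated vehicle mice, at 9.86 to 24.8 CPM (median 15.9) against 3.25 to 13.8 CPM (median 6.85), a log2 fold change of 1.24 ± 0.34 (edgeR adjusted p = 0.0152). Some mice of the 2 groups overlapped, and by total counts the difference was 2.09 and also called. Jchain (1.05 ± 0.55) and Cd37 (0.68 ± 0.20) were the next highest and not called. Relative to the reference genes, 10 members were called higher and 4 lower (75.8% and 0.137% of all genes). The higher ones were Siglecg (3.06 ± 0.41), Jchain (2.70 ± 0.54), Cd37 (2.40 ± 0.36), Plcg2 (2.11 ± 0.38), Btk (1.79 ± 0.41), Fcrl1 (1.59 ± 0.38), Ralgps2 (1.39 ± 0.53), Mef2c (1.28 ± 0.50), Bach2 (1.23 ± 0.37) and Cd180 (1.05 ± 0.36). The lower ones were Vpreb3 (-2.69 ± 0.57), Ighd (-2.35 ± 0.35), Tnfrsf13c (-1.26 ± 0.32) and Fcer2a (-1.08 ± 0.41).

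Plain count ratios within a mouse, chosen after the values were seen, carry no test and need no scaling. Per 100 counts of Cd22, an inhibitory receptor of the same family, Siglecg gave 26.2 to 37.1 (median 29.1) in Day 1 vehicle mice, 18.0 to 35.5 (median 25.9) at 200 mg/kg, 17.9 to 26.0 (median 21.3) at 100 mg/kg and 59.2 to 87.3 (median 75.2) in irradiated vehicle mice. Every irradiated mouse lay above every unirradiated mouse of all 8 groups. The 3 lambda chains together, per 100 counts of the kappa chain Igkc, gave 27.1 to 34.1 (median 27.6) in Day 1 vehicle mice and 40.8 to 48.4 (median 46.1) and 37.2 to 52.0 (median 41.1) at 100 and 200 mg/kg. Every mouse of these 2 dosed groups lay above every vehicle mouse. In irradiated vehicle mice the ratio was 16.8 to 42.3 (median 22.6), which spans the vehicle range.

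**Figure D5:**
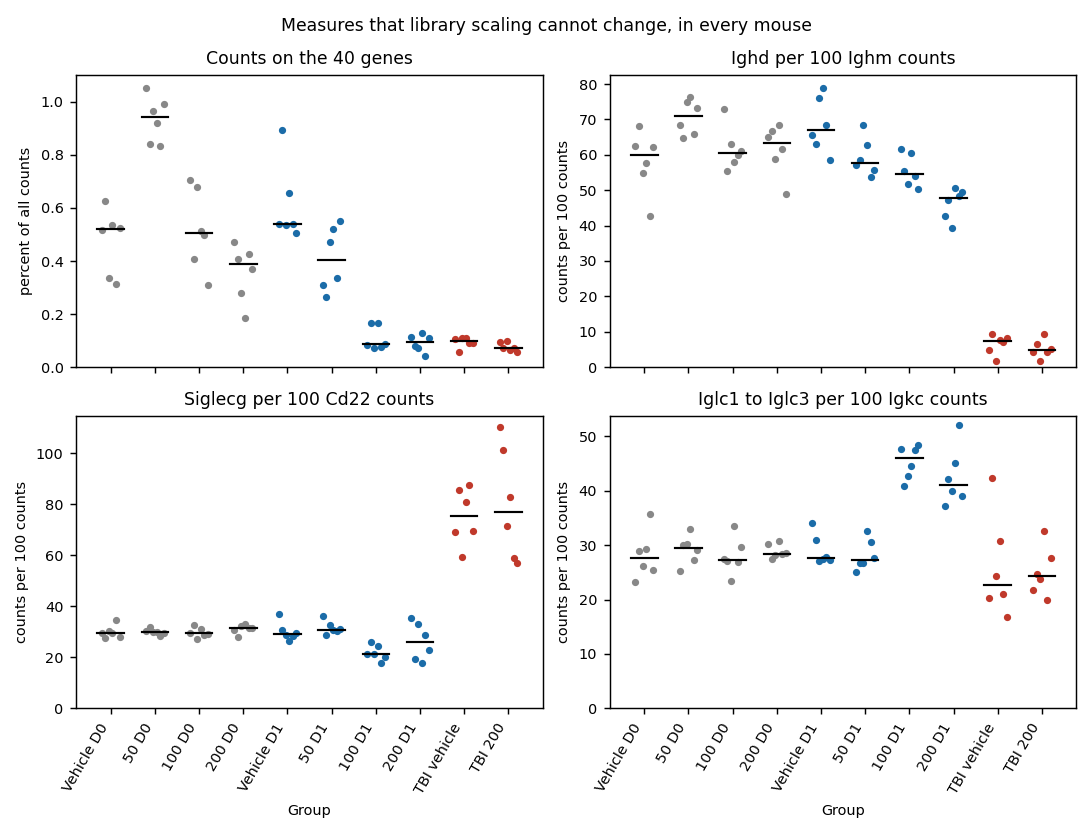
Measures computed without TMM scaling, in each mouse of the 10 groups (points, with bars at group medians; gray Day 0, blue unirradiated Day 1, red irradiated): the percent of counts on the 40 genes, which is a share of total counts, and counts of Ighd per 100 Ighm, Siglecg per 100 Cd22 and Iglc1 to Iglc3 per 100 Igkc. The share of counts is low at 100 and 200 mg/kg on Day 1 and after irradiation. It depends on the counts of all other genes, so like shares do not show losses of like size. The 3 ratios need no scaling and carry no test. Ighd per 100 Ighm is lower and Siglecg per 100 Cd22 higher in every irradiated mouse than in any unirradiated mouse. The lambda ratio is higher at 100 and 200 mg/kg on Day 1 than in vehicle mice, and overlaps there with irradiated vehicle mice.

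In irradiated mice no difference with BIO 300 was detected at these genes. Irradiated 200 mg/kg against irradiated vehicle mice gave 0 members called with edgeR and 0 with DESeq2 (0% of all genes). In these tests 2 and 4 members had an unadjusted p under 0.05, as did 688 and 307 of all 24916 genes. The log2 fold changes were negative at 35 of 40 genes, with a median of -0.42. Cd79a measured 6.01 to 18.4 CPM (median 8.38) against 6.88 to 18.0 CPM (median 11.9), a difference of -0.33 ± 0.33. Pax5 gave the lowest value, -0.80 ± 0.27, and Ralgps2 the highest, 0.32 ± 0.36. Relative to the reference genes, again 0 of 33 were called (0% of all genes), no unadjusted p was under 0.05 and the smallest edgeR adjusted p was 0.919.

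Whether the effect of 200 mg/kg differed between irradiated and unirradiated mice was tested with an interaction term. 23 members were called higher, meaning that the change with the drug was less negative in irradiated mice (19.5% of all genes), with a median of 1.26 beside 0.60 for all genes. By total counts 39 were called higher (43.6% of all genes), with medians of 2.39 and 1.68. The 3 largest were Bach2 (2.21 ± 0.34, adjusted p = 0.000111, edgeR), Siglecg (2.10 ± 0.42) and Ebf1 (1.98 ± 0.49). Cd79a gave 1.46 ± 0.42, Cd79b 1.19 ± 0.46, Ms4a1 1.21 ± 0.46, Ighm 1.16 ± 0.42, Ighd 1.41 ± 0.41, Igkc 1.25 ± 0.43 and Jchain 1.84 ± 0.68, all called. Ralgps2 gave the lowest value, -0.31 ± 0.38, followed by Btk at 0.10 ± 0.22 and Bcl11a at 0.31 ± 0.45, none called, and with total counts Ralgps2 turned to 0.89.

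Within mice given 200 mg/kg, irradiation lowered 28 of the 40 genes and raised none, and the members' median was -1.86. Of all 23610 genes 5.73% were called lower and 3521 higher. Ighd (-4.91 ± 0.33, adjusted p = 1.56e-05, edgeR), Vpreb3 (-4.59) and Tnfrsf13c (-3.77) fell most. Cd79a changed by -2.54 ± 0.32, Cd79b by -2.41 ± 0.32, Ms4a1 by -2.04 ± 0.31, Ighm by -1.60 ± 0.27 and Igkc by -1.53 ± 0.28. The highest were Siglecg (0.88 ± 0.34, adjusted p = 0.0665, edgeR), Jchain (0.69) and Cd37 (0.31), none called. By total counts 16 were called lower and 4 higher, where 0.945% of all genes were lower and 38.5% higher, and the 4 were Siglecg (1.69), Jchain (1.54), Cd37 (1.19) and Plcg2 (1.07). Ms4a1, Ighm and Igkc lost the call, at -1.07, -0.66 and -0.62.

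A further list of 20 genes of the receptor pathway outside the 40 was read in the same fits. After irradiation 6 were called lower, 5 higher and 9 neither, where 16.4% of all genes were called lower and 19.6% higher. By total counts 6 were lower and 3 higher, where 5666 of all 25146 genes were lower and 3115 higher. The adaptor Lax1 changed by -2.74 ± 0.23, while the tetraspanin Cd81, which many cell types make, changed by 2.57 ± 0.35. Against Day 0 vehicle mice 5 were lower and 5 higher, with Lax1 at -2.46, where 2931 of all 24751 genes were lower and 3736 higher. After 200 mg/kg 8 were lower on Day 1 and 4 higher with TMM (30.5% of all genes lower and 17.3% higher). By total counts 14 were lower and 1 higher (65.5% of all genes lower and 3.03% higher). With TMM the largest changes were those of Cd81 (3.12 ± 0.24), the kinase Lyn, which platelets and myeloid cells also use (2.25 ± 0.15), and Cd5 (-2.002 ± 0.28). At 100 mg/kg 7 were lower and 4 higher with TMM (30.6% of all genes lower and 18.2% higher). By total counts 14 were lower and 1 higher (62.2% of all genes lower and 4.14% higher). TMM put Cd81 at 3.07 ± 0.27, Lyn at 2.17 ± 0.19 and Cd5 at -2.02 ± 0.19. Irradiated against unirradiated 200 mg/kg mice gave 3 higher and 1 lower with TMM (3521 and 1352 of all 23610 genes), among the higher Themis2 (1.82) and Pik3cd (1.31). By total counts 11 were higher and 0 lower, where 38.5% of all genes were higher and 0.945% lower. Irradiated vehicle against unirradiated 200 mg/kg mice gave 3 lower and 6 higher with TMM (4.59% and 19.6% of all genes), led by Themis2 (2.13), Fcgr2b (1.79) and Pik3cd (1.51). By total counts 0 were lower and 13 higher (0.993% and 48.8% of all genes). In the interaction of irradiation with 200 mg/kg 8 were higher and 3 lower with TMM (5248 and 2697 of all 26875 genes), led by Cd81 (-2.54), Cd5 (2.36) and Lax1 (2.16). By total counts 15 were higher and 1 lower, where 11725 of all genes were higher and 483 lower. In those of day with dose, TMM called 4 higher and 6 lower for the 200 mg/kg dose, 4 and 7 for 100 mg/kg, and 1 and 0 for 50 mg/kg, where total counts called 1 higher and 14 lower, again 1 and 14, and 0 and 15. Of all genes, in the same order, TMM called 23.6%, 26.3% and 0.961% lower and total counts 52.5%, 56.4% and 38.7%. Called higher were 3372 of 25702, 4073 of 25908 and 1772 of 26323 genes with TMM, and 616, 911 and 395 with total counts. With TMM Cd81 led at 200 mg/kg (2.70), 100 mg/kg (3.06) and 50 mg/kg (1.74), followed at the higher doses by Lyn (2.06 and 2.20) and Cd5 (-1.92 and -2.07). Of 7 plasma cell genes 4 were lower after irradiation (16.4% of all genes) and none higher, namely Irf4 (-2.78), Tnfrsf17 (-1.47), Mzb1 (-1.42) and Prdm1 (-1.31). The rest, Sdc1 (2.65 ± 1.25), Xbp1 (0.58 ± 0.29) and Derl3 (0.16 ± 0.51), had positive values and were not called. The 7 genes summed to 34.2 to 259 CPM (median 60.0) in irradiated vehicle mice, against 95.3 to 117 CPM (median 99.9) in Day 1 vehicle mice. After 200 mg/kg 2 of the 7 were lower and after 100 mg/kg 3, where 30.5% and 30.6% of all genes were lower, with Irf4 at -1.70 and -1.48. By total counts all 7 were lower at both doses, with medians of -2.33 and -2.28. On that scale 65.5% and 62.2% of all genes were lower, with all-gene medians of -1.96 and -1.76. The others called with TMM were Sdc1 (-1.27) at 200 mg/kg and Tnfrsf17 (-1.55) and Prdm1 (-1.46) at 100 mg/kg.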

How the data were processed

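Per the labels, whole blood RNA came from 60 mice, 1 library each, in 10 groups of 6. Trimming by the authors used Trimmomatic 0.36, alignment to GRCm38 used STAR 2.5.2b, and uniquely placed reads were counted per gene in Subread 1.5.2. The deposited values are raw counts per gene, in tables that each hold a pair of groups. Each mouse's counts were identical wherever they were repeated. The labels name poly(A) selection, while the study's methods name a stranded total RNA kit with ribosomal and globin depletion. The deposited comparison tables also hold the authors' DESeq2 fold changes and p-values, and only their gene names were used.

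Here, edgeR 4.0.16 (R 4.3.3, TMM, quasi-likelihood test, 2 groups per fit or 4 for interactions) was run on all genes with at least 10 counts summed over the fit, with Benjamini-Hochberg adjustment over all genes. Genes were called at an adjusted p under 0.05 when the log2 fold change also exceeded 1 in size. The fits relative to reference genes scaled each library by the median of 7 count ratios (pseudocount 0.5). Alternatives were total counts, DESeq2 size factors, DESeq2 1.42.0, filterByExpr, no filter, leaving out mice over 100 CPM of Alb, and leaving out each mouse. The tests were tried on simulated data with known changes. No 2 libraries of a group agreed within counting noise. Counting error is small beside the spread between mice except at Vpreb3 after irradiation.

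The named genes are 7 receptor and identity genes in every comparison with calls, the 3 lowest and 3 highest members of each, every member not called lower after irradiation, the members called in the relative fits, and the 3 largest of each interaction and signalling list. The members and lists were chosen with earlier results of these data known. Results of a few genes of the signalling list, and 1 alternative that rests on one of them, are not reported here.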

Additional observations from a re-analysis of the deposited data

Results flagged for a closer look

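Members were called in 4 tests of whether the effect of BIO 300 differed between groups. 23 were called higher in the interaction of irradiation with 200 mg/kg (19.5% of all genes). 27 were called lower in that of day with 200 mg/kg (23.6% of all genes) and 26 in that of day with 100 mg/kg (26.3%). The interaction of day with 50 mg/kg called 1 lower, Ighd (0.961% of all genes), a call lost with DESeq2 size factors and with filterByExpr.

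Of 120 sets of 6 mice examined, 6 had a mouse that stood far from the other 5, a gap that chance gives in about 1 set of 20. Ms4a1 was high in mouse 10 of the 100 mg/kg Day 0 group (253.6 CPM) and in mouse 40 of the 100 mg/kg Day 1 group (127 CPM). Igkc was high in mouse 26 of the Day 1 vehicle group (698 CPM). Mouse 57 of the irradiated 200 mg/kg group was high at Ighm (115 CPM) and low at Btk (23.6 CPM). The share of counts on the 40 genes was low in mouse 50 of the irradiated vehicle group (0.0564%). Without mouse 40, 29 members were called lower at 100 mg/kg on Day 1 in place of 26. With all mice 30.6% of all genes were called lower there, and the share without mouse 40 is not given here.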

How the results depend on the processing

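Of 551 log2 fold changes of single genes recomputed under another setting, 515 kept their direction and their side of the threshold, and 11 changed direction. Of the rest, 16 gained a call and 9 lost it. The counts of members called are not part of this tally. Total counts, which shift most genes one way, gave 13 members called higher at 50 mg/kg on Day 0 (10.5% of all genes), 39 higher in the interaction of irradiation with 200 mg/kg (43.6%), 39 lower in that of day with 50 mg/kg (38.7%), and 12 in either direction in irradiated vehicle against 200 mg/kg mice (48.8% of all genes higher and 0.993% lower). The day by 50 mg/kg interaction called 0 members with DESeq2 size factors and 0 with filterByExpr. Directions changed with total counts for Ralgps2 and Btk after irradiation against Day 1 vehicle (-0.20 and -0.35), for Btk against Day 0 vehicle (-0.0068), for both genes at 200 mg/kg (-0.69 and -1.29) and at 100 mg/kg (-0.54 and -1.11), and for Ralgps2 in irradiated against unirradiated 200 mg/kg mice (0.69, and 0.017 without a filter). Plcg2 changed direction without the mice over 100 CPM of Alb (0.082 against Day 1 and 0.028 against Day 0 vehicle). Except for the scaling itself, the cause was not tested. Leaving out 1 mouse at a time gave 33 to 35 members called after irradiation, 26 to 34 with 200 mg/kg and 26 to 29 with 100 mg/kg on Day 1, and 0 in the comparisons of 50 mg/kg on each day and of the irradiated groups. No paired analysis was possible because each mouse number belongs to 1 group. With 6 mice a group, differences well under the fold limit were often not resolved, and Vpreb3 after irradiation rests on 10 reads or fewer per mouse.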

Other observations

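Jchain stood apart from the receptor genes in its spread and in its ratio to Ighm, which was computed after its values were seen. Per 100 Ighm counts, Jchain gave 2.28 to 5.8 (median 4.74) in Day 1 vehicle mice, 1.04 to 3.45 (median 2.72) at 100 mg/kg and 1.23 to 4.75 (median 2.5) at 200 mg/kg on Day 1. In irradiated vehicle mice it gave 3.19 to 21.2 (median 16.4) and in irradiated mice given 200 mg/kg 6.58 to 31.7 (median 11.5). Both irradiated ranges overlapped with unirradiated groups, since the ratio reached 7.04 in Day 0 vehicle mice, 9.26 in 100 mg/kg Day 0 mice and 13.4 in 50 mg/kg Day 1 mice.

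Vpreb3 per 100 Cd79a counts gave 4.38 to 4.87 (median 4.57) in Day 1 vehicle mice, 5.58 to 8.5 (median 6.83) at 100 mg/kg and 5.63 to 9.92 (median 8.15) at 200 mg/kg, with every mouse of both doses above the Day 1 vehicle mice, although Day 0 vehicle mice spanned 3.52 to 6.09 (median 5.02). In irradiated vehicle mice it was 0.469 to 4.85 (median 1.43), from few reads. Btk per 100 Cd79a counts was 17.8 to 22.4 (median 20.3) in Day 1 vehicle mice, 46.7 to 120.2 (median 71.4) at 200 mg/kg and 144 to 705 (median 308) after irradiation.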
